A study of Mus musculus with 6 samples.

Results

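The genes described here carry pyruvate into the mitochondrion's tricarboxylic acid (TCA) cycle, run the cycle, and break down fatty acids in mitochondria. They were chosen by symbol as 39 of the 39234 genes in the deposited table, of which 18 belong to pyruvate entry and the TCA cycle and 21 to fatty acid oxidation, including 2 regulators. The rule itself uses no measured value, but the members were chosen with earlier results of these data known. All 39 had a row, and 37 passed the filter on low counts. The 2 that did not were CPT1C, a brain form of carnitine palmitoyltransferase, with 4, 0 and 0 counts in control cells and 0 in each library with USAG-1 overexpression, and ACADL, the long-chain acyl-CoA dehydrogenase, with 0, 10 and 4 counts against 0, 0 and 8.

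As background, pyruvate dehydrogenase turns pyruvate into acetyl-CoA, which citrate synthase joins to oxaloacetate, and the TCA cycle then oxidises the citrate while passing electrons to the respiratory chain. Long fatty acids enter mitochondria on carnitine and are shortened in rounds of beta-oxidation, each of which releases acetyl-CoA to the same cycle. Proximal tubule cells of the kidney are known to depend heavily on fatty acid oxidation for the energy that reabsorption needs, and PPARA with its coactivator PPARGC1A (PGC-1alpha) is known to drive transcription of many of these enzymes.

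RNA was sequenced from HK-2 cells, an immortalised human proximal tubule epithelial line, in 3 control libraries and 3 libraries with overexpression of USAG-1, a secreted antagonist of BMP and Wnt signalling encoded by SOSTDC1. The comparison asks which transcripts differ when USAG-1 is raised. Both groups carry the genotype label WT, and no age, time or stress treatment is labelled. According to the study's methods, overexpression in cells was by transient plasmid transfection and the line was not STR-authenticated, and the plasmid given to these control cells is not stated in the labels. Mouse is given as the species in the labels, but HK-2 is a human line and the gene IDs of the table are human ones. Nothing in the labels states that the libraries of a group came from separate cultures, so p-values measure the spread between these libraries, which may be technical.

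Library totals ran from 41236194 to 48699471 counts. The targeted gene matched the labels: SOSTDC1 had 79, 80 and 60 counts in control cells and 5072, 3907 and 4438 with USAG-1 overexpression, a log2 fold change of 5.94. Control replicate 3 stood apart from the other controls, with a chi-square per degree of freedom of 42.3 and 42.7 against them, compared with 6.52 between controls 1 and 2 and 7.66 to 8.35 within the USAG-1 group. Of 20 T cell and cytotoxic markers, 20 were lower with USAG-1 overexpression and none was at 0 in the controls: their summed level was 115, 117 and 145 CPM (counts scaled to a library of 1000000 counts) in control cells against 14.9, 12.3 and 12.8, with a median log2 fold change of -3.29. The share of counts from mitochondrially encoded genes was 4.80 to 5.59% in controls and 1.50 to 1.55% with USAG-1 overexpression. Of all genes tested, edgeR called 15.9%, 8.95% higher and 6.91% lower. Among myeloid markers 2 of 9 were lower, 22.2% called (sums of 52.0 to 109 against 40.5 to 72.0 CPM). Among B cell markers 1 of 8, CD22, was higher, 12.5% called (13.1 to 14.5 against 16.0 to 21.3 CPM). The mean of CD22 went from 4.59 to 10.9 CPM, whereas 6 of the 8 had a log2 fold change below 0. Among fibroblast markers 1 of 3 tested was higher, 33.3% called (39.8 to 41.5 against 56.0 to 58.0 CPM). Of 6 platelet and erythroid markers tested, edgeR called 0, with 0 at an unadjusted p under 0.05, 0 by DESeq2 and 0 by limma-voom (8.19 to 111 against 8.84 to 77.9 CPM). The proximal tubule label was only partly borne out. The epithelial list summed to 1811 to 2267 CPM in controls, of which KRT8 alone gave 971 to 1277 CPM. CDH1, of the same list, never exceeded 0.206 CPM and was not tested. GGT1 and MME were expressed, whereas LRP2 (megalin) was at 0 in every library and CUBN (cubilin) never exceeded 0.359 CPM. In bulk RNA, fewer cells of a type and less RNA per cell cannot be told apart, and the part of these markers, of the mitochondrial share and of control replicate 3 in the results that follow was not tested unless a value is given.

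In each pathway some genes were higher with USAG-1 overexpression, fewer were lower, and most did not pass the test. In all, 12 of the 37 genes tested passed the threshold (edgeR's quasi-likelihood test, Benjamini-Hochberg adjusted p under 0.05 over all genes), 9 higher and 3 lower, a share of 32.4% beside 15.9% of all 18188 genes tested. For all genes the split was 8.95% higher and 6.91% lower. By pathway, 4 of 18 pyruvate and TCA cycle genes were higher (DLAT, CS, OGDH and DLD) and 1 was lower (IDH2), while 5 of 19 fatty acid oxidation genes and regulators were higher (CPT1A, ACADM, ACAT1, PPARA and PPARGC1A) and 2 were lower (CPT2 and HADH). The median log2 fold change was 0.05 in the first group and 0.04 in the second, beside -0.02 over all genes.

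The sizes were modest except for CPT1A. The absolute log2 fold change of the genes called ran from 0.20 to 0.95, and the 25 others lay between -0.59 and 0.30. Libraries did not overlap between the groups in 17 of 37 genes, 10 above and 7 below the controls, beside 37.6% of all genes. Summed over the 18 pyruvate and TCA cycle genes, the level was 1832, 1837 and 2119 CPM in control cells and 2024, 2082 and 2066 CPM with USAG-1 overexpression. Over the fatty acid oxidation genes and regulators it was 1072, 1068 and 1207 CPM against 1124, 1128 and 1140.4 CPM. In both sums control replicate 3 was the highest of the 6 libraries, so the groups overlapped.

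**Figure D1:**
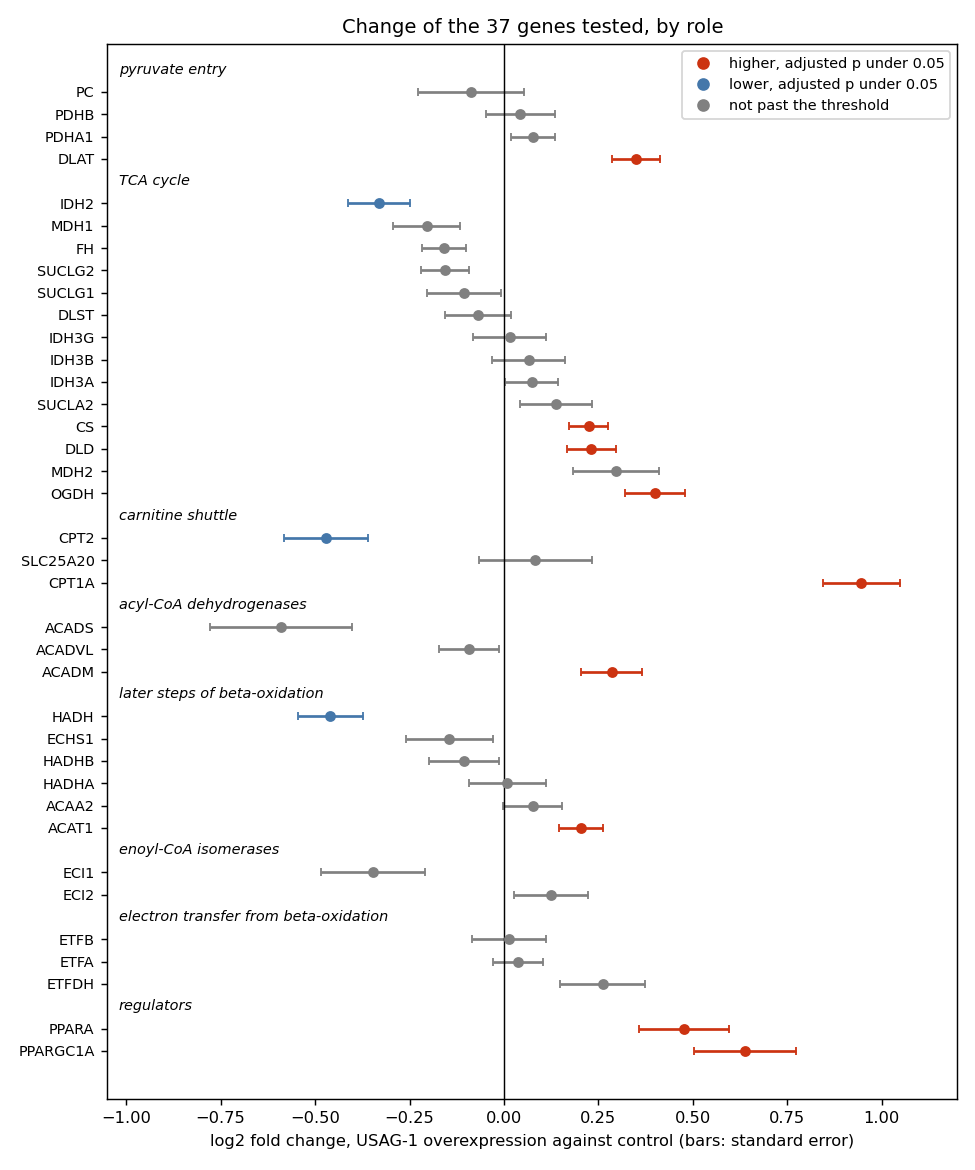
Log2 fold change of each of the 37 genes tested, USAG-1 overexpression against control, with its standard error as a bar, grouped by role; red marks genes higher and blue genes lower at an adjusted p under 0.05. CPT1A, at 0.95, lies farthest to the right, and each pathway holds genes on both sides of 0.

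Among the genes of pyruvate entry, DLAT was higher, and the other 3 were not called. DLAT (ENSG00000150768, on the plus strand of chr11:112025408-112064389, hg38) encodes the acetyltransferase core of pyruvate dehydrogenase. Its level was 66.2, 62.0 and 60.2 CPM in control cells and 81.5, 76.3 and 82.2 CPM with USAG-1 overexpression. All 3 libraries with USAG-1 overexpression lay above all controls, and the mean went from 62.8 ± 3.08 to 80.0 ± 3.21 CPM (SD, n = 3 each; log2 fold change 0.35, standard error 0.06, adjusted p = 0.00941 by edgeR). Without USAG-1 replicates 1 or 3 in turn the fold change was 0.34 and 0.33 and the call was lost.

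PDHA1, the catalytic alpha subunit of the same complex, had 162, 158 and 174 CPM in control cells and 172, 174 and 176 CPM with USAG-1 overexpression. Control replicate 3 fell among the USAG-1 libraries, and the gene did not pass the threshold (log2 fold change 0.08, standard error 0.06, adjusted p = 0.413 by edgeR), although it did without that control, at 0.12. PDHB, the beta subunit, and PC, the pyruvate carboxylase that makes oxaloacetate, gave log2 fold changes of 0.04 and -0.09. Of the 3 listed subunits particular to pyruvate dehydrogenase, DLAT alone was thus called by edgeR, and with control replicate 3 left out PDHA1 as well.

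The first enzyme of the cycle, citrate synthase, was among the genes that rose. CS (ENSG00000062485, minus strand of chr12:56271699-56300391) had 338, 346 and 365 CPM in control cells and 406, 409.8 and 408 CPM with USAG-1 overexpression. The USAG-1 libraries were nearly identical to each other and above every control (349 ± 13.7 against 408 ± 1.73 CPM; log2 fold change 0.22, standard error 0.05, adjusted p = 0.0242 by edgeR). The call was lost when any library other than control replicate 3 was left out, with fold changes of 0.20 to 0.23. It was also lost with the replicate number as a block.

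At the isocitrate step, the NADP-dependent and the NAD-dependent enzymes differed in their calls, a contrast that was not itself tested. IDH2 (ENSG00000182054, minus strand of chr15:90083045-90102468) is the mitochondrial NADP-dependent isocitrate dehydrogenase, known as a source of NADPH for antioxidant defence. It had 97.5, 106 and 121 CPM in control cells and 84.2, 87.0 and 86.6 CPM with USAG-1 overexpression. Every USAG-1 library lay below every control (108 ± 11.7 against 86.0 ± 1.55 CPM; log2 fold change -0.33, standard error 0.08, adjusted p = 0.0303 by edgeR). The call was lost without control replicate 2 or any USAG-1 library, at -0.34 to -0.31, and also with no filter on low counts. Without control replicate 3 the fold change shrank to -0.24 while staying called. IDH3A, IDH3B and IDH3G, the subunits of the NAD-dependent enzyme that drives the cycle forward, had overlapping groups and log2 fold changes of 0.07, 0.07 and 0.01.

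The 2-oxoglutarate dehydrogenase complex follows, and 2 of its 3 subunits were higher. OGDH (ENSG00000105953, plus strand of chr7:44606572-44708328), its first and rate-setting subunit, had 105, 96.2 and 113 CPM in control cells and 130.3, 148 and 138 CPM with USAG-1 overexpression. The groups were apart, with means of 105 ± 8.65 and 139 ± 8.70 CPM (log2 fold change 0.40, standard error 0.08, adjusted p = 0.0127 by edgeR), the largest change among the 18 pyruvate and TCA cycle genes. Without USAG-1 replicate 2 or 3 the values were 0.35 and 0.41 and the call was lost.

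DLD (ENSG00000091140, plus strand of chr7:107891162-107921198) is the lipoamide dehydrogenase that the 2-oxoglutarate and pyruvate dehydrogenase complexes share. It had 43.6, 43.9 and 43.8 CPM in control cells and 55.1, 49.6 and 49.4 CPM with USAG-1 overexpression. The controls were almost level and all USAG-1 libraries above them, with replicate 1 the highest (43.8 ± 0.136 against 51.4 ± 3.20 CPM; log2 fold change 0.23, standard error 0.07, adjusted p = 0.0478 by edgeR). This call was close to the threshold and was lost on leaving out any library but control replicate 3, at 0.18 to 0.26. With every library kept, it was also lost with DESeq2 size factors, limma-voom, no filter on low counts or a replicate block. DLST, the remaining subunit, had 180.3, 174 and 217 CPM in control cells against 176, 186 and 182 CPM and was not called, with a log2 fold change of -0.07.

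None of the genes of the later cycle was called by edgeR, although MDH2 was when control replicate 3 was left out. Of SUCLA2, SUCLG1 and SUCLG2 (subunits of succinyl-CoA ligase), FH (fumarase), MDH1 and MDH2 (malate dehydrogenases of cytosol and mitochondrion), edgeR called 0 of 6, and DESeq2 and limma-voom also called 0. Among these, SUCLG2, FH and MDH2 had an unadjusted p under 0.05, 3 in all, a level that 5552 of all 18188 genes tested reached. SUCLG2, FH and MDH1, the last with an unadjusted p of 0.0510 by edgeR, had all USAG-1 libraries below all controls. The same held for 18.1% of all genes tested. The log2 fold changes of these 3 genes were -0.16, -0.16 and -0.20, with adjusted p = 0.136, 0.106 and 0.166 by edgeR. FH, for example, had 98.5, 97.3 and 105 CPM in control cells and 88.8, 88.9 and 92.0 CPM with USAG-1 overexpression.

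For MDH2 the call turned on a single control library. Its level was 218, 223 and 298 CPM in control cells and 293, 309 and 305 CPM with USAG-1 overexpression. Controls 1 and 2 lay well below all other libraries and control replicate 3 among those with USAG-1 overexpression (246 ± 44.6 against 303 ± 8.44 CPM; log2 fold change 0.30, standard error 0.11, adjusted p = 0.119 by edgeR). Without control replicate 3 the fold change was 0.46 and passed the threshold.

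**Figure D2:**
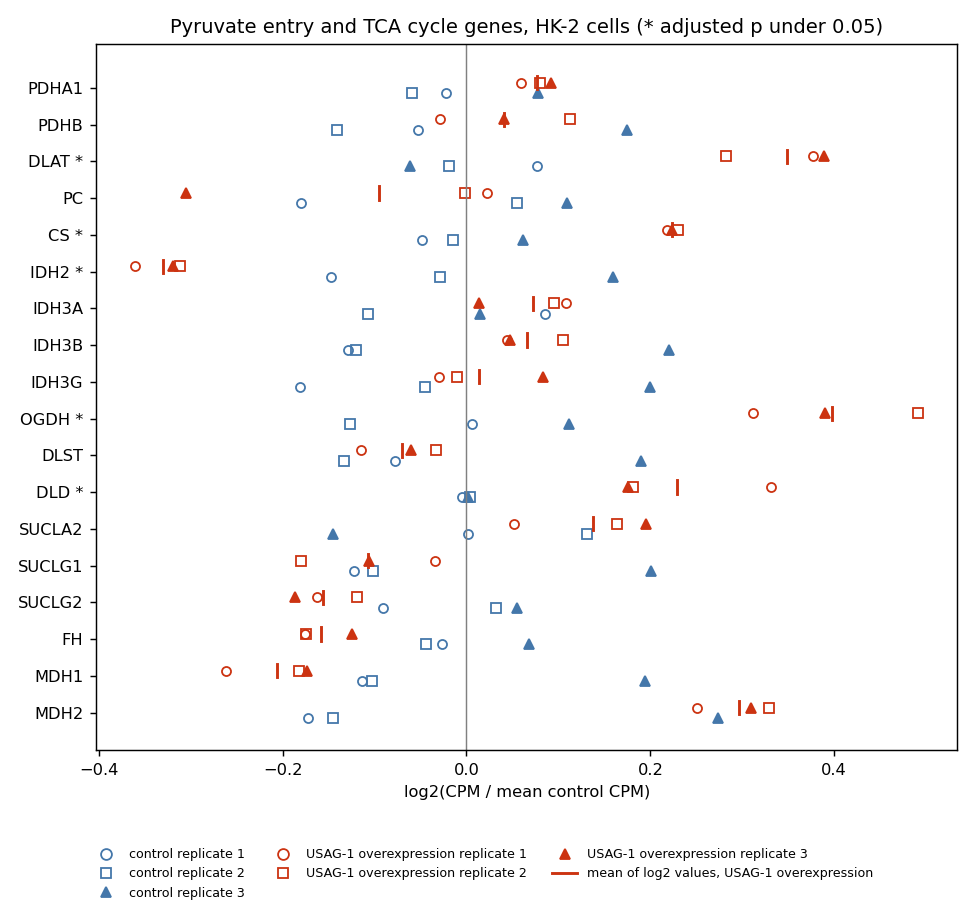
Level of each pyruvate entry and TCA cycle gene in each of the 6 libraries, as log2 of its CPM over the mean control CPM; blue symbols are control and red symbols USAG-1 overexpression libraries, the short red line is the mean of the USAG-1 log2 values, and a star marks an adjusted p under 0.05. Control replicate 3 (blue triangle) is the highest control in 14 of the 18 genes, and in DLAT, CS, OGDH and DLD the red symbols lie to the right of all blue ones.

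In fatty acid oxidation the carnitine shuttle held the largest change of all members and also a change in the opposite direction. CPT1A (ENSG00000110090, minus strand of chr11:68754620-68841931) is the liver-type carnitine palmitoyltransferase of the outer mitochondrial membrane and the main control point for long fatty acids entering the mitochondrion. Its level was 29.8, 24.7 and 33.2 CPM in control cells and 56.9, 56.1 and 55.8 CPM with USAG-1 overexpression. The USAG-1 libraries lay close together and well above every control (29.2 ± 4.25 against 56.2 ± 0.555 CPM), a 1.93-fold higher level (log2 fold change 0.95, standard error 0.10, adjusted p = 0.00118 by edgeR). CPT1A was the only one of the 12 genes to keep its call under all 14 alternative settings, with log2 fold changes from 0.84 to 1.05.

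CPT2 (ENSG00000157184, plus strand of chr1:53196792-53214197), which turns acylcarnitine back into acyl-CoA on the inner membrane, was lower. It had 19.3, 16.6 and 21.1 CPM in control cells and 14.7, 13.4 and 13.0 CPM with USAG-1 overexpression. The groups did not overlap (19.0 ± 2.26 against 13.7 ± 0.862 CPM; log2 fold change -0.47, standard error 0.11, adjusted p = 0.0251 by edgeR), and the call was lost without control replicate 1 or any USAG-1 library, at -0.52 to -0.43. CPT2 overlaps CZIB on the other strand, which had 5104 counts over the 6 libraries beside 4352 for CPT2 and a log2 fold change of -0.27 without a call. The strand setting used for counting is not given in the sources used here, so reads of the overlap cannot be assigned with certainty.

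SLC25A20, the carrier that exchanges acylcarnitine for carnitine across the inner membrane, had 6.95, 5.67 and 7.48 CPM in control cells against 6.47, 7.37 and 7.44 CPM and was not called (log2 fold change 0.08). The shuttle genes thus included 1 higher, 1 lower and 1 not called, besides CPT1C, which was not tested. Their summed level of 56.1, 47.0 and 61.8 CPM in control cells against 78.0, 76.9 and 76.3 CPM with USAG-1 overexpression did not overlap between the groups. The rise in this sum lay mostly in CPT1A, whose mean went from 29.2 to 56.2 CPM. The mean of CPT2 went from 19.0 to 13.7 CPM and that of SLC25A20 from 6.70 to 7.09 CPM, so the shuttle genes did not rise together.

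The acyl-CoA dehydrogenases open each round of beta-oxidation, each for its own chain lengths, and only the medium-chain enzyme was called. ACADM (ENSG00000117054, plus strand of chr1:75724431-75763720) had 53.0, 47.6 and 44.4 CPM in control cells and 60.9, 60.5 and 55.2 CPM with USAG-1 overexpression. All USAG-1 libraries lay above the controls (48.3 ± 4.34 against 58.9 ± 3.15 CPM; log2 fold change 0.28, standard error 0.08, adjusted p = 0.0488 by edgeR). The adjusted p was close to the threshold, and the call was lost without control replicate 2 or any USAG-1 library, at 0.26 to 0.33. It was also lost with scaling by library sizes alone or with no filter on low counts.

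ACADS, the short-chain enzyme, had the lowest log2 fold change of all members and missed the threshold. Its level was 6.42, 7.72 and 9.31 CPM in control cells and 6.03, 4.31 and 5.24 CPM with USAG-1 overexpression, the groups lying just apart (7.82 ± 1.45 against 5.19 ± 0.865 CPM; log2 fold change -0.59, standard error 0.19, adjusted p = 0.0705 by edgeR). DESeq2's Wald test called it, at -0.60. ACADVL, the very-long-chain enzyme, had 218, 223 and 185 CPM in control cells against 201, 186 and 199.5 CPM. It was not called (log2 fold change -0.09), except without control replicate 3, its lowest control, where it was lower at -0.17.

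Of the 6 enzymes of the following steps, HADH was lower, ACAT1 was higher and 4 were not called. HADH (ENSG00000138796, plus strand of chr4:107989714-108035241) is the mitochondrial dehydrogenase for medium- and short-chain hydroxyacyl-CoA. It had 52.7, 51.6 and 63.0 CPM in control cells and 40.1, 41.3 and 40.3 CPM with USAG-1 overexpression. The USAG-1 libraries were tightly grouped below every control (55.8 ± 6.32 against 40.6 ± 0.656 CPM; log2 fold change -0.46, standard error 0.09, adjusted p = 0.0101 by edgeR), and the call was lost without any USAG-1 library, at -0.47 to -0.45. Without control replicate 3 it stayed called at -0.36.

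ACAT1 (ENSG00000075239, plus strand of chr11:108116695-108147603) is the mitochondrial acetoacetyl-CoA thiolase, which also serves ketone body and isoleucine metabolism. It had 54.2, 51.7 and 55.3 CPM in control cells and 63.1, 61.2 and 61.4 CPM with USAG-1 overexpression. The groups were apart but the change was the smallest among the genes called (53.7 ± 1.87 against 61.9 ± 1.08 CPM; log2 fold change 0.20, standard error 0.06, adjusted p = 0.0482 by edgeR). The call was lost on leaving out any library but control replicate 3, at 0.18 to 0.22. With every library kept, it was also lost with DESeq2 size factors, limma-voom, no filter on low counts or a replicate block.

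HADHA and HADHB, the subunits of the trifunctional protein for long chains, ECHS1, the short-chain enoyl-CoA hydratase, and ACAA2, a mitochondrial thiolase, had overlapping groups and log2 fold changes of 0.01, -0.11, -0.14 and 0.08. In HADHA the levels were 158, 159 and 206 CPM in control cells against 176, 173 and 177 CPM, so that control replicate 3 alone lay above the USAG-1 libraries. Without that control HADHA and ACAA2 were called higher, at 0.15 and 0.17.

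The enoyl-CoA isomerases, which prepare unsaturated chains for beta-oxidation, and the electron transfer proteins, which carry electrons from the acyl-CoA dehydrogenases to ubiquinone, held no gene that edgeR called. Of the 2 isomerases, 1 had an unadjusted p under 0.05, as did 5552 of all 18188 genes, and DESeq2 and limma-voom called 0 isomerases. ECI1 had 37.6, 40.1 and 52.4 CPM in control cells and 30.7, 32.8 and 38.7 CPM with USAG-1 overexpression, with groups that overlapped (log2 fold change -0.35, standard error 0.14, adjusted p = 0.129 by edgeR). ECI2 had 88.2, 85.8 and 107 CPM against 93.1, 108 and 105 CPM (log2 fold change 0.12), and was called higher without control replicate 3, at 0.24.

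Of the 3 electron transfer genes, likewise 1 had an unadjusted p under 0.05, beside the same 5552 of 18188, and DESeq2 and limma-voom called 0 of the 3. ETFDH, the dehydrogenase that hands the electrons to ubiquinone, had 10.5, 10.5 and 8.86 CPM in control cells and 12.3, 12.1 and 11.4 CPM with USAG-1 overexpression. All USAG-1 libraries lay above the controls without passing the threshold (log2 fold change 0.26, standard error 0.11, adjusted p = 0.159 by edgeR), and ETFDH overlaps PPID on the other strand, which had 8513 counts beside 2918. ETFA, a subunit of the electron transfer flavoprotein, had 54.9, 56.4 and 60.6 CPM against 56.5, 61.4 and 58.4 CPM (log2 fold change 0.04), and its partner ETFB gave 0.01.

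Both regulators were higher with USAG-1 overexpression. PPARA (ENSG00000186951, plus strand of chr22:46150521-46243755), the nuclear receptor that senses fatty acids, had 17.9, 17.7 and 19.6 CPM in control cells and 27.7, 27.9 and 21.1 CPM with USAG-1 overexpression. Replicates 1 and 2 of the USAG-1 group were well above the controls and replicate 3 only just (18.4 ± 1.05 against 25.6 ± 3.84 CPM; log2 fold change 0.48, standard error 0.12, adjusted p = 0.0308 by edgeR). The call was lost without control replicates 1 or 2 or USAG-1 replicates 1 or 2, at 0.41 to 0.46. It was also lost with no filter on low counts or a replicate block.

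PPARGC1A (ENSG00000109819, minus strand of chr4:23755041-23890077), the coactivator known for raising mitochondrial gene expression, had 13.9, 16.3 and 11.5 CPM in control cells and 22.6, 19.7 and 22.5 CPM with USAG-1 overexpression. The groups were apart (13.9 ± 2.41 against 21.6 ± 1.66 CPM; log2 fold change 0.64, standard error 0.13, adjusted p = 0.0165 by edgeR). Without USAG-1 replicates 1 or 3 the fold change was 0.61 each time and the call was lost.

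**Figure D3:**
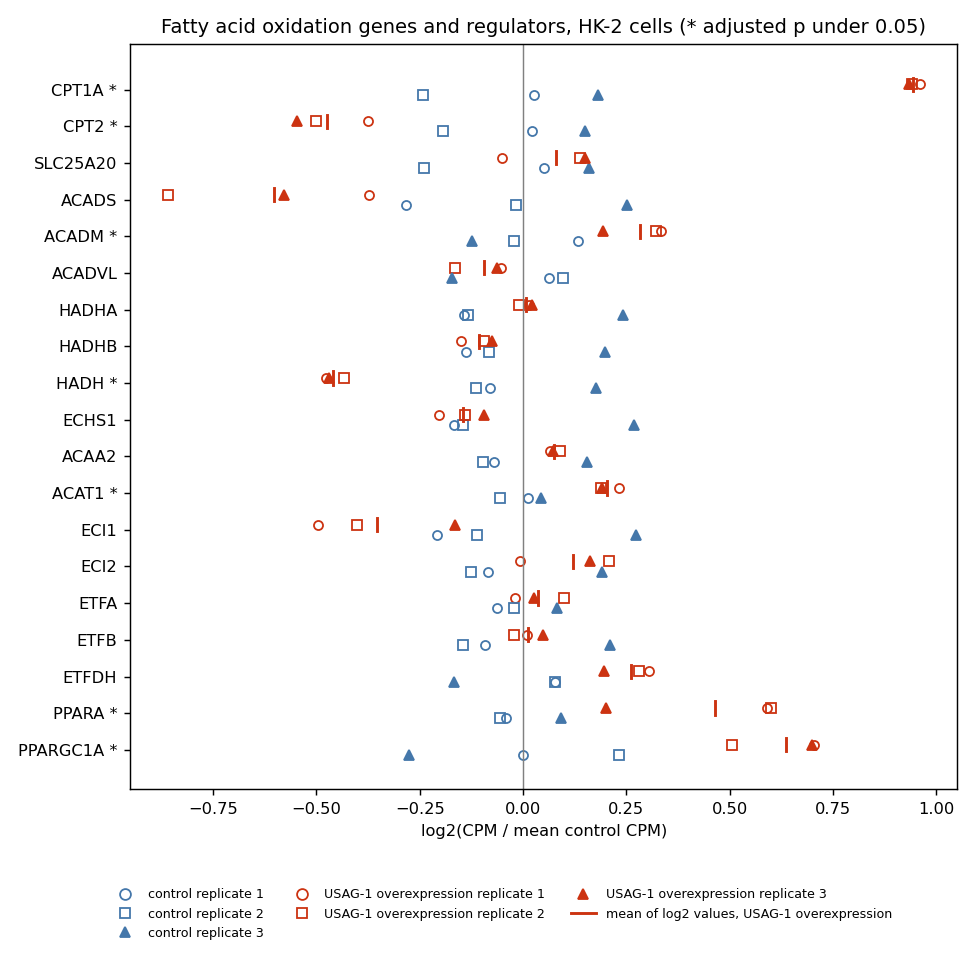
Level of each tested fatty acid oxidation gene and regulator in each of the 6 libraries, as log2 of its CPM over the mean control CPM; blue symbols are control and red symbols USAG-1 overexpression libraries, the short red line is the mean of the USAG-1 log2 values, and a star marks an adjusted p under 0.05. The red symbols of CPT1A form a tight group far to the right, those of HADH a tight group to the left, and control replicate 3 (blue triangle) is the highest control in 15 of the 19 genes.

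Control replicate 3 was the highest of the 3 controls in 29 of the 37 members tested (78.4%), beside 40.3% of all genes. Without it, 19 members were called, 15 higher and 4 lower, beside 27.0% of the 18866 genes then tested (15.8% higher and 11.2% lower). They included all 12 of the genes called with it. The genes gained were PDHA1, IDH3B (0.20), MDH2, HADHA, ACAA2 and ECI2, all higher, and ACADVL, lower. The median log2 fold change was then 0.11 for the pyruvate and TCA cycle genes and 0.15 for the fatty acid oxidation genes and regulators.

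**Figure D4:**
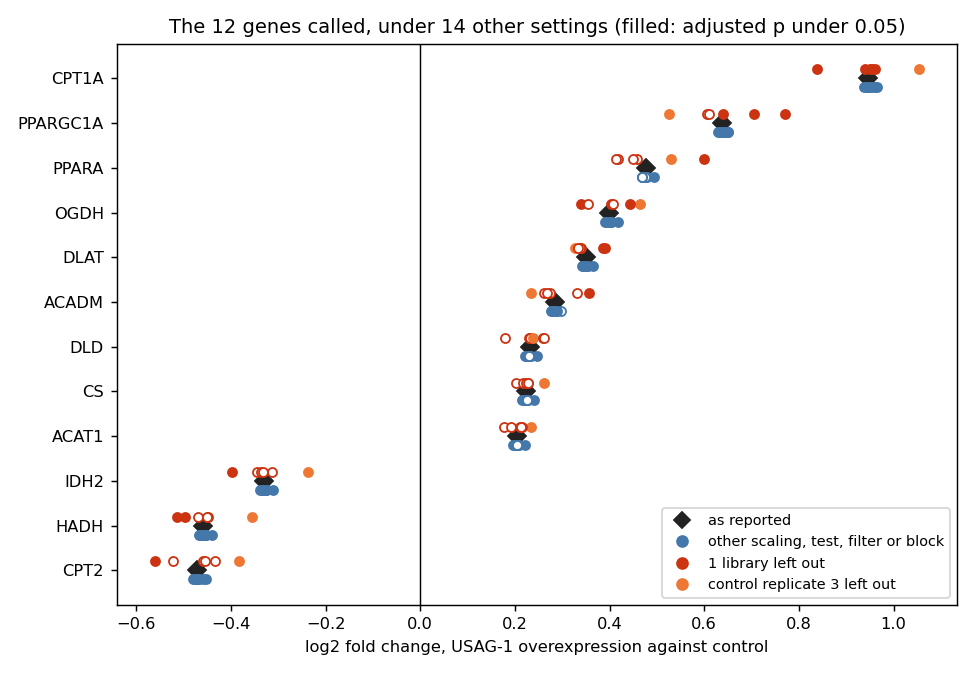
Log2 fold change of the 12 genes called, as reported (black diamonds), under other scaling, tests, filters or a replicate block (blue) and with 1 library left out (red, or orange for control replicate 3); filled symbols have an adjusted p under 0.05 and open ones do not. No symbol crosses 0, and CPT1A alone has only filled symbols.

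Most of the open symbols, where a call was lost, belong to fits with a library left out. Leaving out USAG-1 replicate 1, 2 or 3 left 2, 3 and 2 of 37 members called. Of all genes, 1306 of 18863, 1137 of 19008 and 1347 of 18995 were then called. The members' larger share was thus not kept without USAG-1 replicate 1 or 3. It was kept without USAG-1 replicate 2, where it rested on 3 genes. Leaving out control replicate 1 or 2 left 7 and 6 members called, beside 1917 of 18824 and 1636 of 18716 genes. The direction of the 12 genes did not change under any of the 14 alternatives.

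The other genes of these pathways were taken from hand-made lists of 110 genes, of which 101 were tested. In total 23 were called, 19 higher and 4 lower, a share of 22.8% beside the 15.9% of all genes, with a median log2 fold change of 0.07. By list the median lay between -0.03 and 0.13.

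Among 26 other genes of pyruvate handling and the TCA cycle, 6 were higher and 0 lower, 23.1% called beside 15.9% of all genes. IDH1, the cytosolic NADP-dependent isocitrate dehydrogenase, had 46.3, 46.8 and 53.3 CPM in control cells and 65.2, 69.4 and 66.4 CPM with USAG-1 overexpression (log2 fold change 0.46, standard error 0.07, adjusted p = 0.00537 by edgeR), the opposite direction to its mitochondrial relative IDH2. ME1, the cytosolic malic enzyme and likewise a source of NADPH, rose from 61.1 ± 0.929 to 77.3 ± 3.29 CPM (0.34, adjusted p = 0.00749 by edgeR). PDK2, a kinase that inhibits pyruvate dehydrogenase, rose from 6.99 ± 0.724 to 10.7 ± 0.680 CPM (0.61, adjusted p = 0.0156 by edgeR), although the call was lost without USAG-1 replicate 1 or 2, at 0.56 and 0.61. LIAS, which makes the lipoyl group of DLAT and DLST (0.47), and PDK1, another such kinase (0.28), were also higher and were chosen for mention after their values were seen. The 4 subunits of succinate dehydrogenase, SDHA to SDHD, were not called, with log2 fold changes of -0.13 to -0.05.

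Among 12 carriers and genes of glutamine entry, 1 was higher and 1 lower, 16.7% called and so near the 15.9% of all genes. GOT1, the cytosolic aspartate aminotransferase of the malate-aspartate shuttle, rose from 57.1 ± 5.51 to 72.9 ± 1.63 CPM (log2 fold change 0.35, adjusted p = 0.0203 by edgeR). The call was lost when any library but control replicate 3 was left out, at 0.28 to 0.37.

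Upstream of the carnitine shuttle, 5 of 19 genes of fatty acid uptake and activation were higher and 0 lower, 26.3% called beside 15.9% of all genes. SLC27A4, a fatty acid transport protein with acyl-CoA synthetase activity, went from 38.6 ± 2.83 to 50.0 ± 1.96 CPM (log2 fold change 0.37, adjusted p = 0.0124 by edgeR). CROT, the peroxisomal carnitine octanoyltransferase, went from 7.21 ± 0.179 to 10.9 ± 1.07 CPM (0.59, adjusted p = 0.0136 by edgeR). ACSL3, a long-chain acyl-CoA synthetase, went from 109 ± 8.79 to 138 ± 4.10 CPM (0.34, adjusted p = 0.0160 by edgeR). The other two, chosen for mention after their values were seen, were ACSL1 (0.31) and ACACB (0.33), the acetyl-CoA carboxylase whose product malonyl-CoA inhibits CPT1A. Leaving out a library ended the call of SLC27A4 (control replicate 2 and USAG-1 replicates 2 and 3, at 0.35 to 0.36), CROT (USAG-1 replicate 2, at 0.51) and ACSL3 (any USAG-1 library, at 0.32 to 0.36).

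Outside the member list, other mitochondrial acyl-CoA enzymes and ketone genes gave 2 higher and 1 lower of 16. That share of 18.8% was near the 15.9% of all genes. PCCA and PCCB, the subunits of propionyl-CoA carboxylase, which handles the residue of odd-chain fatty acids, were at 10.4 ± 0.771 against 14.5 ± 0.910 CPM (log2 fold change 0.48, adjusted p = 0.0203 by edgeR) and 58.0 ± 6.40 against 72.0 ± 2.80 CPM (0.31, adjusted p = 0.0429 by edgeR). Both calls were lost when any library but control replicate 3 was left out, at 0.42 to 0.52 and 0.24 to 0.35. That of PCCB was also lost with no filter on low counts. BDH1, the ketone body dehydrogenase, fell from 59.9 ± 2.64 to 44.9 ± 2.53 CPM (-0.42, adjusted p = 0.00588 by edgeR).

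Of 12 genes of peroxisomal oxidation, which shortens very long chains, 2 were higher, a share of 16.7% and so near the 15.9% of all genes. EHHADH, the peroxisomal bifunctional enzyme, was at 24.1 ± 1.51 CPM in control cells and 34.5 ± 2.27 CPM with USAG-1 overexpression (log2 fold change 0.51, adjusted p = 0.00528 by edgeR).

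Of 18 tested factors and targets around PPAR and PGC-1, 3 were higher and 2 lower, 27.8% called beside 15.9% of all genes. PPARG, the PPAR known for fat cell differentiation, had 25.3, 29.7 and 28.5 CPM in control cells and 45.3, 49.1 and 49.5 CPM with USAG-1 overexpression (log2 fold change 0.78, standard error 0.08, adjusted p = 0.000960 by edgeR). RXRA, a partner of PPARs on DNA, rose from 50.6 ± 2.79 to 71.3 ± 1.45 CPM (0.50, adjusted p = 0.00224 by edgeR). PLIN2, a lipid droplet coat protein and known PPAR target, rose from 127 ± 22.9 to 183 ± 3.94 CPM (0.52, adjusted p = 0.0185 by edgeR), a call lost on leaving out any library but control replicate 3, at 0.44 to 0.54. The 2 that fell, chosen for mention after their values were seen, were RXRB (-0.32) and ANGPTL4 (-0.38), another known PPAR target. PPARGC1B, ESRRA, PPARD and PDK4 were not called, with log2 fold changes of 0.00, 0.10, 0.07 and 0.49.

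**Figure D5:**
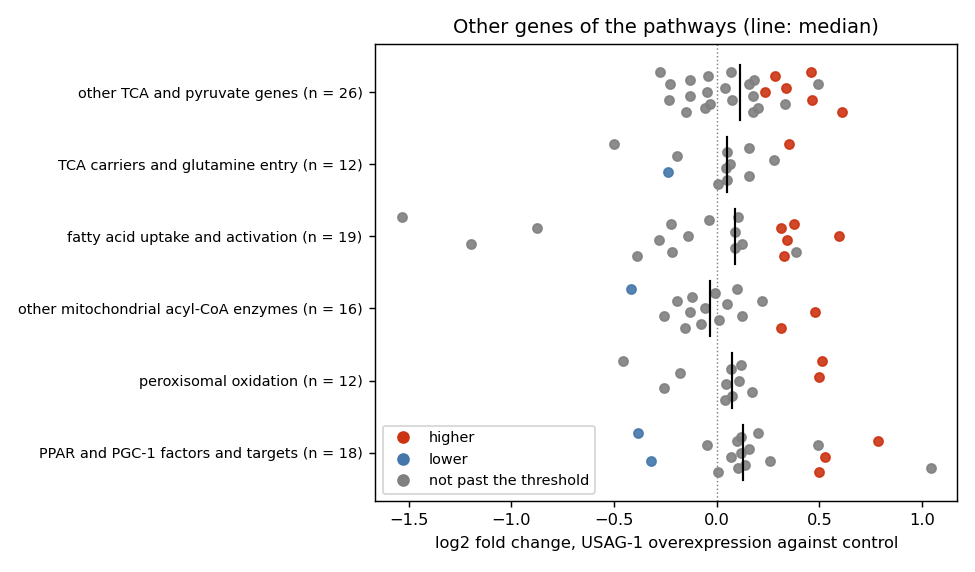
Log2 fold change of each tested gene of the 6 other pathway lists, USAG-1 overexpression against control, 1 point per gene; red points are higher and blue points lower at an adjusted p under 0.05, and the black line is the median of the list. Most points lie within 0.5 of 0, and the list medians run from -0.03 to 0.13.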

How the data were processed

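RNA-seq was compared between 3 control and 3 USAG-1-overexpressing HK-2 libraries, grouped by their labels. The authors deposited 1 table of whole-number gene counts, not normalized, although its name speaks of FPKM. Per the submitters' processing notes, cutadapt 1.9, FastQC and the build hg38 were used. The aligner, the counter and its strand setting are not given in the sources used here, and the labels describe both oligo(dT) selection and removal of rRNA. Positions are those of the deposited table. Columns without a library numbered 0.

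Low genes were removed with filterByExpr, TMM set the scaling, and edgeR 4.0.16 in R 4.3.3 gave the tests (quasi-likelihood test, all 6 libraries, no covariate, Benjamini-Hochberg adjustment over 18188 genes, threshold 0.05 at any fold change). The study's methods name DESeq2, run as an alternative. CPM are counts per 1000000 of the TMM-scaled library, not per length, so levels of different genes were not compared. Standard errors were computed by dividing each log2 fold change by the root of its F statistic. At these depths 3 counts, the limit that a count of 0 allows, equal 0.0608 to 0.0719 CPM, which covers counting error only. The script was tested on simulated counts, where edgeR recovered 59.1% of 2-fold and 87.8% of 4-fold changes, and 9.27% of its calls were false. Those libraries were drawn independently, with 192 of 17694 genes changed and no library set apart as control replicate 3 was. These rates may therefore not hold for the real libraries. Smaller changes were not simulated, so a gene not called may still have changed.

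The members and all lists were chosen with earlier results of these data known. Values in each library are given for every member called and for the 2 with the smallest p in each of 8 role groups, with others added for context after their values were seen; of each list of other pathway genes, at most 3 called genes with the smallest p are named by rule, and a few genes counted in these lists are not reported here by name. Some genes stand in 2 lists. Alternatives were DESeq2 1.42.0 size factors, library sizes alone, scaling without mitochondrially encoded genes, DESeq2's Wald test, limma-voom (limma 3.58.1), a replicate block, no filter, a minimum of 10 counts per gene in each library, and leaving out each library. Sequences and promoter motifs were not analysed here.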

Additional observations from a re-analysis of the deposited data

How the results depend on the processing

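Of the 12 genes called, 1 kept its call in all 14 alternatives and 0 reversed. Of the 25 not called, 9 were called in some alternative. The 5 calls among the 18 pyruvate and TCA cycle genes became 3 with no filter on low counts (0 lower by edgeR) and 3 with a replicate block (2 higher). The 7 calls among the fatty acid oxidation genes and regulators became 4 with no filter (2 higher), and with the block 3 were higher. Leaving out 1 library at a time, the pyruvate and TCA cycle genes gave 0 to 8 calls (0 to 7 higher, 0 to 1 lower; median log2 fold change 0.00 to 0.11) and the fatty acid oxidation genes and regulators gave 1 to 11 (1 to 8 higher, 0 to 3 lower; median -0.025 to 0.15). All genes gave 1137 to 5091 calls (630 to 2985 higher, 507 to 2106 lower), with the highest counts without control replicate 3. By edgeR, the pyruvate and TCA cycle genes had 0 calls in all without USAG-1 replicate 3, 0 lower without control replicate 2 or any 1 of the USAG-1 libraries, and the fatty acid oxidation genes had 0 lower without any 1 of the USAG-1 libraries. Among genes not called, 10 changed sign when a library was left out, with lowest and highest log2 fold changes over the 6 such fits of -0.023 and 0.14 for PDHB, -0.17 and 0.013 for PC, -0.066 and 0.13 for IDH3G, -0.13 and 0.042 for DLST, -0.16 and 0.013 for SUCLG1, -0.025 and 0.18 for SLC25A20, -0.057 and 0.15 for HADHA, -0.17 and 0.0098 for HADHB, -0.22 and 0.018 for ECHS1, and -0.056 and 0.14 for ETFB. The cause of these changes was not tested.

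The replicate numbers did not pair the libraries: the correlation of same-numbered deviations was 0.07, -0.05 and 0.04. With the replicate number as a block, 2381 genes and 9 members were called, 8 of them shared with the fit without it and ECI1 gained at -0.34, and not every library correlated best with its own number. DESeq2's Wald test called 3761 genes and 13 members, limma-voom 2895 and 10. CPT1C and ACADL had too few counts to pass the filter, and the part of sequencing depth in this was not tested.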
